A study of Mus musculus with 6 samples.

Results

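Autophagy machinery is represented here by 36 genes, from the kinases that start an autophagosome to the membrane proteins of the lysosome that receives it. The members are a fixed list of symbols, and a gene was read on the probe set annotated to exactly its symbol that had the highest mean over the 6 arrays. All 36 were measured, out of 18193 named genes on the array. They were compared between Sirt1-/- (KO) and Sirt1+/+ (WT) R1 embryonic stem cells, a mouse line of (129X1 x 129S1)F1 origin. Sirt1 encodes an NAD-dependent protein deacetylase. Cells of both genotypes were cultured on 0.1% gelatin, without any treatment that starves them, in medium with 15% heat-inactivated serum and 100 IU/ml of leukaemia inhibitory factor, the cytokine that keeps such cells undifferentiated. Total RNA from 3 KO and 3 WT samples was measured on Affymetrix 3' expression arrays, 1 per sample, and levels are log2 RMA values. Each genotype has 1 source in the labels, which do not state whether the KO cells are 1 clone. The loss of Sirt1 and anything else that separates those sources therefore cannot be told apart. Whether replicates are separate cultures is not stated either, and the p-values cover only the variation among the arrays at hand, perhaps technical.

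Autophagy encloses cytoplasm in a double membrane, the autophagosome, and delivers it to lysosomes for breakdown. A kinase complex built on ULK1 or ULK2 starts the process when nutrients or energy run short, and a lipid kinase complex built on VPS34 (Pik3c3) and Beclin 1 then marks the growing membrane with phosphatidylinositol 3-phosphate (PI3P). WIPI proteins bind that lipid, ATG9 vesicles and ATG2 supply membrane, and a pair of ubiquitin-like conjugation reactions attaches ATG8 proteins (the LC3 and GABARAP families) to it. Cargo receptors such as p62 (Sqstm1) tie the load to ATG8 proteins. SIRT1 is known to deacetylate ATG5, ATG7 and LC3 proteins in mammalian cells, a modification that transcript levels do not report. Stem cells use autophagy to renew proteins and mitochondria.

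The arrays of the series were alike, and the targeted transcript was lower in every KO array. Sirt1 averaged 8.05 ± 0.14 in KO cells and 10.16 ± 0.06 in WT cells (SD, n = 3 each), a log2 difference of -2.11. Over the 18193 genes, which are not independent of each other, arrays correlated at 0.989 to 0.991 (Pearson) across genotypes and at 0.997 to 0.998 inside one. The embryonic stem cell label was borne out by its markers, all 12 of which lay above the median level of all genes. Of these markers 1 rose and 7 fell, and their summed linear intensity was 48110 to 49400 in KO arrays and 57760 to 58720 in WT arrays. Of 10 endoderm markers 6 fell, with a sum of 289 to 322 in KO arrays and 648 to 680 in WT arrays. None of the 10 rose in limma, and 0 had a higher KO level at an unadjusted p under 0.05. Of 12 fibroblast (feeder) markers 1 rose and 2 fell, with a sum of 324 to 353 in KO arrays and 399 to 446 in WT arrays. Of this list 4 genes lay below the lower quartile of all probe sets, among them the collagen gene Col3a1, at 2.74 in KO arrays and 2.59 in WT arrays. The 2 above the median of all genes were Pdgfrb, which fell to 6.996 in KO arrays against 7.49 in WT arrays, and Twist1, which rose to 6.25 in KO arrays against 5.78 in WT arrays. Thy1 fell to 5.16 in KO arrays, against 6.23 in WT arrays. RMA values never reach 0. The part of these cells, and of the lower endoderm markers, in the results that follow was not tested. In RNA from whole cultures, fewer cells with a transcript and less of it per cell cannot be told apart.

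Autophagy genes moved in both directions in KO cells. In KO cells 9 of the 36 rose and 7 fell at an adjusted p under 0.05 (limma, Benjamini-Hochberg over all genes), while 20 did not pass. The genes that fell belong to the ULK complex and to the group of lipid transfer proteins and PI3P effectors. The genes that rose belong to the conjugation system, the ATG8 family, the cargo receptors and the lysosome membrane. Differences were small, between -0.53 for Ulk2 and 0.63 for Map1lc3b on the log2 scale, and 0 of the 36 reached 2-fold. The members' median difference was 0.00 and their median absolute difference 0.18, against -0.01 and 0.14 over all genes. The share of members that passed in either direction, 44.4%, lay above the 30.0% of all genes. It was close to the 48.0% of genes brighter than the median gene, a class that holds all but 2 of the members, Ulk2 and Atg10. The number of calls is therefore no result about autophagy, and the values below describe single genes. Nor is anything read from the counts by role given below, since the share of bright genes was not taken by direction. Upward calls took 12.5% and downward calls 17.5% of all genes. KO and WT arrays did not overlap for 22 of the 36 members, against 43.8% of all genes. That share was not taken for bright genes either, and nothing is read from the count.

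**Figure D1:**
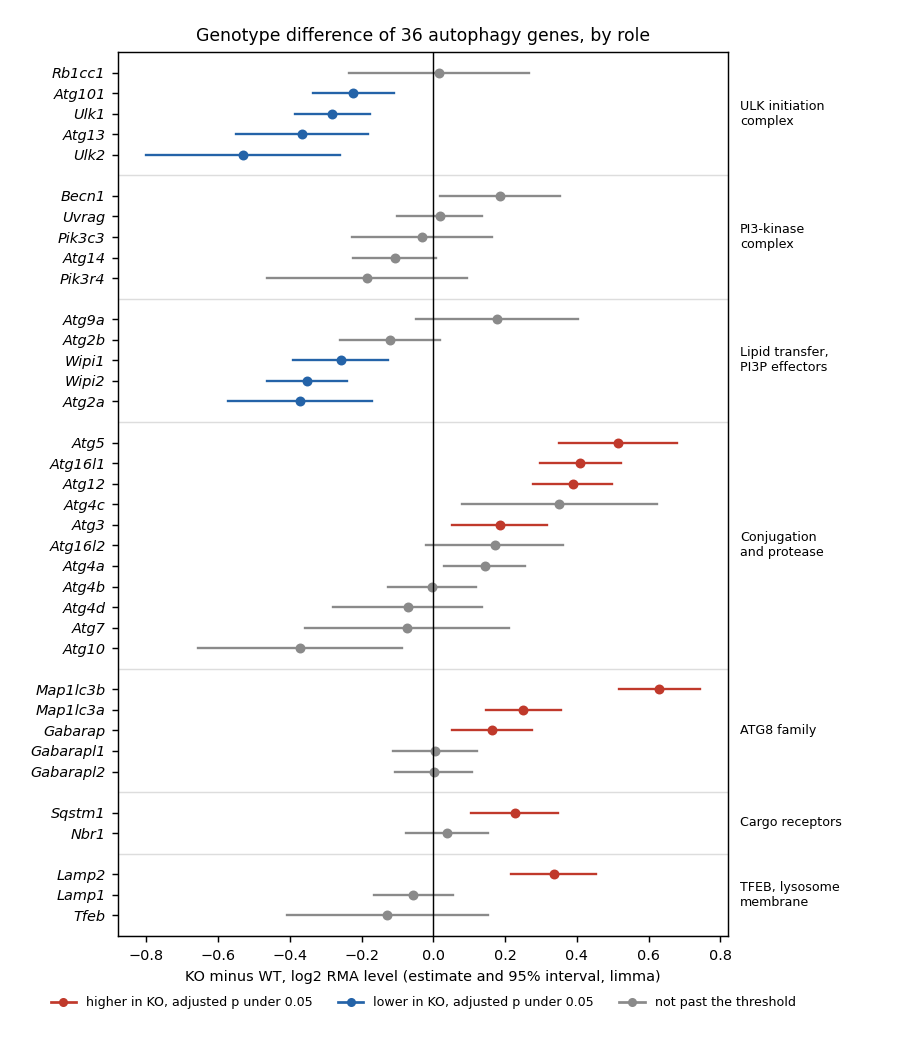
Points are the KO minus WT difference in log2 RMA level of each of the 36 autophagy genes, lines are 95% intervals from limma (3 KO and 3 WT arrays), and genes are ordered by difference within each role. Lowered genes (blue) lie in the initiation and PI3P effector groups and raised genes (red) in the conjugation, ATG8, receptor and lysosome groups, from -0.53 (Ulk2) to 0.63 (Map1lc3b).

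The ULK initiation complex was lower in KO cells for 4 of its 5 genes, and 0 rose in limma, nor did any show a higher level at an unadjusted p under 0.05 (0 genes). Ulk1, the kinase that AMPK activates and mTORC1 restrains, read 9.44, 9.41 and 9.41 in KO arrays and 9.70, 9.73 and 9.68 in WT arrays. The KO arrays lay wholly below the WT arrays, with a log2 difference of -0.28 (SE 0.044; limma, adjusted p = 0.00381), which is 1.22-fold lower. The other probe set of Ulk1, also above the median level of genes, differed by 0.05 with overlap (limma over all probe sets, adjusted p = 0.724). Its paralogue Ulk2 read 5.47, 5.51 and 5.59 in KO arrays and 6.21, 5.80 and 6.15 in WT arrays, a difference of -0.53 (SE 0.11; limma, adjusted p = 0.0131). WT replicate 2 was the lowest of its group for Ulk2, yet still above each KO array. Ulk2 was also among the dimmest members, at the 49.6th percentile of gene levels.

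Both regulatory subunits that bind each other in the complex moved with the kinases. Atg13, which carries the signal of mTORC1 to the complex, read 7.55, 7.58 and 7.37 in KO arrays and 7.82, 7.81 and 7.97 in WT arrays, a difference of -0.37 (SE 0.076; limma, adjusted p = 0.0125). Atg101, which stabilises ATG13, read 7.89, 7.98 and 7.92 in KO arrays and 8.16, 8.17 and 8.12 in WT arrays, or -0.22 (SE 0.047; limma, adjusted p = 0.0130). The groups were apart for both genes. Without WT replicate 1 the call of Atg101 was lost, at a difference of -0.22 and an adjusted p of 0.0518 in limma, the highest of its 15 alternatives (lowest 0.00214). Rb1cc1, which encodes the scaffold FIP200, depended on the probe set. Its brightest one read 7.93, 8.20 and 8.29 in KO arrays and 8.04, 8.11 and 8.22 in WT arrays, with overlap and a difference of 0.02 (95% interval -0.24 to 0.27). Its second probe set read 6.57, 6.45 and 6.52 in KO arrays and 7.47, 7.46 and 7.57 in WT arrays, a difference of -0.99 (SE 0.064; limma over all probe sets, adjusted p = 0.00019). The files do not say which transcripts of Rb1cc1 each probe set reads.

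The PI3-kinase complex had no gene past the threshold in limma, with 0 of 5 called and 1 at an unadjusted p under 0.05. That gene was Becn1, the Beclin 1 scaffold, which read 9.27, 9.48 and 9.38 in KO arrays and 9.12, 9.26 and 9.19 in WT arrays. Its KO arrays lay narrowly above its WT arrays, with a difference of 0.19 (95% interval 0.02 to 0.35; limma, adjusted p = 0.0961). The catalytic subunit Pik3c3 differed by -0.03 (95% interval -0.23 to 0.16) and its regulatory kinase Pik3r4 by -0.18 (-0.46 to 0.09). Of the alternative subunits that give the complex its place, Atg14 at the autophagosome differed by -0.11 (-0.22 to 0.01) and Uvrag at endosomes by 0.02 (-0.10 to 0.14). The intervals of Pik3c3, Uvrag and Atg14 leave room for changes of up to 0.23 log2 units, about as large as the fall of Atg101.

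Of the genes that supply or recognise the growing membrane, 3 of 5 fell and 0 rose in limma (0 also at an unadjusted p under 0.05 in that direction). Wipi2, the PI3P sensor that recruits ATG16L1, read 8.28, 8.20 and 8.24 in KO arrays and 8.62, 8.60 and 8.57 in WT arrays, a difference of -0.35 (SE 0.047; limma, adjusted p = 0.00203). Wipi1, a related PI3P sensor, read 8.50, 8.54 and 8.56 in KO arrays and 8.72, 8.78 and 8.87 in WT arrays, or -0.26 (SE 0.055; limma, adjusted p = 0.0137). Atg2a, a lipid transfer protein, read 5.96, 6.05 and 5.93 in KO arrays and 6.51, 6.22 and 6.32 in WT arrays, or -0.37 (SE 0.083; limma, adjusted p = 0.0164). The 3 KO values lay below the 3 WT values in each of these genes. Its paralogue Atg2b differed by -0.12 (95% interval -0.26 to 0.02) and the scramblase Atg9a by 0.18 (-0.05 to 0.40), and neither passed.

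These 3 falls had limits of their own. Atg2a was no longer past the threshold without KO replicate 1 (-0.36; limma, adjusted p = 0.0508) or KO replicate 3 (-0.35; 0.0567), where its adjusted p otherwise reached down to 0.00530. The Wipi2 result rested on the brightest of its probe sets. The others read 0.13 and 0.31 higher in KO cells. The first lay above the median level of genes and was not called. The second, below that median at 5.39 in KO arrays and 5.08 in WT arrays, was called at an adjusted p of 0.0392 in limma over all probe sets. The mean of all probe sets of Wipi2 differed by 0.03 (limma, adjusted p = 0.746; lowest over the alternatives 1.24e-05). For Wipi1 the other probe sets differed by -0.17 to 0.10 and none was called. Its mean over all probe sets was -0.08 (limma, adjusted p = 0.345), and on a probe set of another class, without a suffix that marks shared sequence, it was -0.04 (0.918). That probe set lay below the median level of genes, at 4.82 in KO arrays and 4.86 in WT arrays.

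In the conjugation system 4 of 11 genes rose and 0 fell in limma, where 1 had a lower KO level at an unadjusted p under 0.05. Among them Atg12, Atg5 and Atg16l1 encode the complex that places ATG8 proteins on the membrane. Atg5 read 8.13, 8.18 and 8.35 in KO arrays and 7.71, 7.74 and 7.67 in WT arrays, a difference of 0.51 or 1.43-fold (SE 0.068; limma, adjusted p = 0.00203). Atg12, the ubiquitin-like protein joined to ATG5, read 9.60, 9.62 and 9.68 in KO arrays and 9.24, 9.24 and 9.26 in WT arrays, a difference of 0.39 or 1.31-fold (SE 0.046; limma, adjusted p = 0.00129). Atg16l1, which docks the pair on the membrane, read 7.89, 7.92 and 7.84 in KO arrays and 7.47, 7.45 and 7.50 in WT arrays, a difference of 0.41 or 1.33-fold (SE 0.046; limma, adjusted p = 0.00110). In each of these genes the lowest KO array exceeded the highest WT array by more than the range within either group, and all 3 calls held under the 15 alternatives tried. A second probe set of Atg12 above the median level of genes differed by 0.08, with overlap (limma over all probe sets, adjusted p = 0.506). Every probe set of Atg12 has a suffix that marks shared sequence, so the alternative without such suffixes reread its brightest one.

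Of the enzymes around that complex, Atg3 alone passed. Atg3, the E2-like enzyme that hands over ATG8 proteins, read 8.86, 8.95 and 8.98 in KO arrays and 8.70, 8.80 and 8.74 in WT arrays, a difference of 0.18 (SE 0.055; limma, adjusted p = 0.0463). Its groups were separate by little, and the call was lost in 11 of 15 alternatives, with adjusted p between 0.00435 and 0.408. Those include leaving out KO replicate 2 or 3 or any 1 of the WT arrays. Atg7, the E1-like enzyme of both reactions, read 6.54, 6.11 and 6.14 in KO arrays and 6.30, 6.40 and 6.31 in WT arrays, with overlap and a difference of -0.07 (95% interval -0.36 to 0.21). Atg10, the E2-like enzyme for ATG12, read 3.48, 3.82 and 3.37 in KO arrays and 3.94, 3.85 and 4.003 in WT arrays, a difference of -0.37 that did not pass (limma, adjusted p = 0.0578). It was the dimmest member, at the 26.6th percentile of gene levels. It passed without KO replicate 2 (-0.50; limma, adjusted p = 0.00736) and with an intensity trend in the variance (-0.37; 0.0404), the lowest values of its alternatives, which ranged up to 0.148.

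The ATG4 proteases, which trim ATG8 proteins and release them again, had 0 of 4 genes called in limma and 2 at an unadjusted p under 0.05. Atg4c read 6.501, 6.73 and 6.77 in KO arrays and 6.35, 6.12 and 6.48 in WT arrays, a difference of 0.35 (95% interval 0.08 to 0.62; limma, adjusted p = 0.0608). It passed under 6 of its 15 alternatives, among them without KO replicate 1 (0.43; limma, adjusted p = 0.0405) and without WT replicate 3 (0.43; 0.0421), within a range of 0.0128 to 0.164. Atg4a differed by 0.14 (95% interval 0.03 to 0.26; limma, adjusted p = 0.0642), Atg4b by -0.00 (-0.13 to 0.12) and Atg4d by -0.07 (-0.28 to 0.14). Atg16l2, a paralogue of Atg16l1, differed by 0.17 (-0.02 to 0.36) and did not pass.

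**Figure D2:**
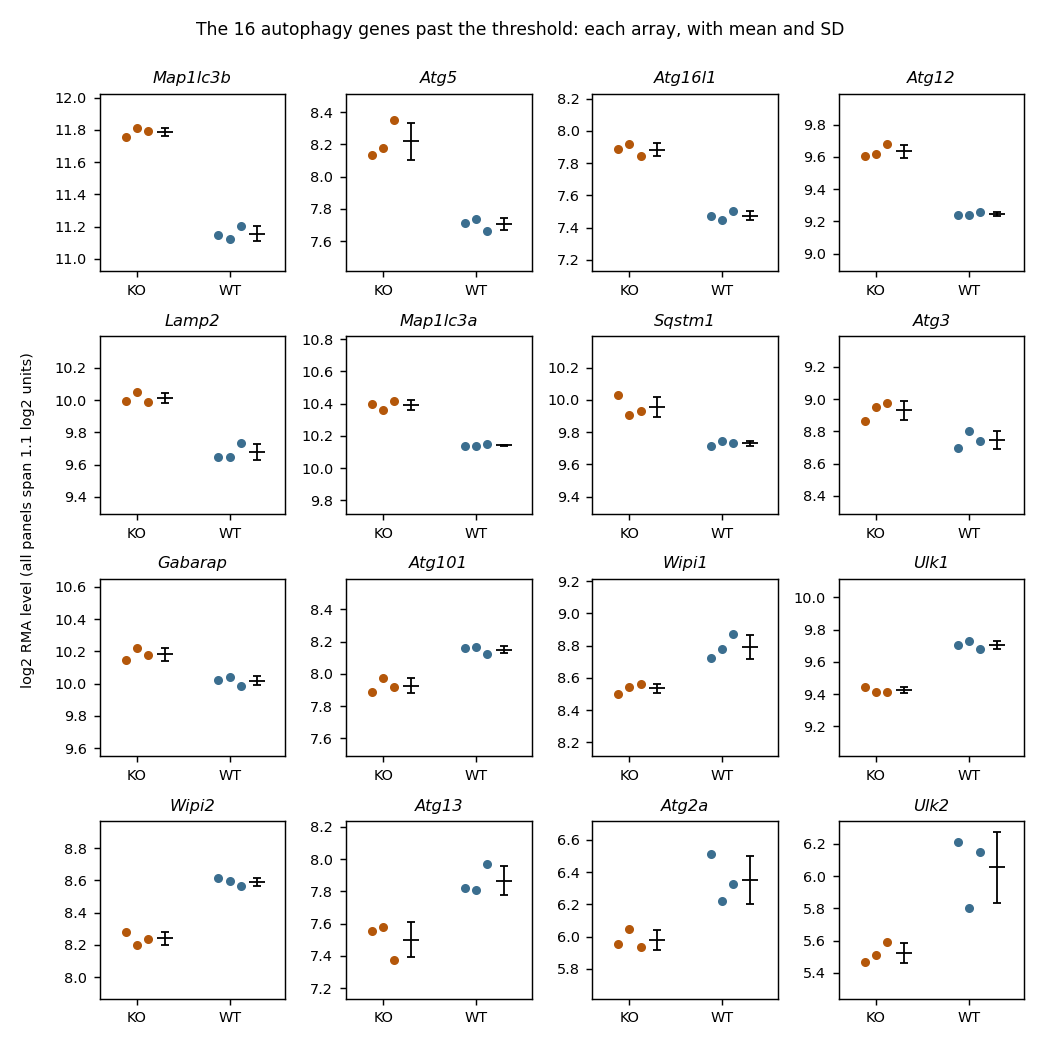
Each panel shows the log2 RMA level of 1 of the 16 autophagy genes past the threshold in the 3 KO arrays (left) and 3 WT arrays (right), with the mean and SD beside the points, on axes that all span the same 1.1 log2 units. KO and WT points do not overlap in any panel, and Map1lc3b (0.63) and Ulk2 (-0.53) show the widest gaps between means.

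Sequence just upstream of the members was searched for a few known elements. RefSeq windows of the 250 bases before the start of transcription (GRCm38.p6) were at hand for 30 members, with several windows for 4. The search on both strands covered CACGTG, the E-box, and the longer CLEAR element built around it, through which TFEB acts on lysosomal genes, so that any CLEAR match is also an E-box match. It also covered TGATGNAA, the C/EBP-ATF element bound by ATF4 and its partners, the cyclic AMP response element TGACGTCA and the FoxO element GTAAACA. The E-box lay in windows of 4 of the 30 members (13.3%), against 8.73% of 14452 measured genes with a window. By call it was present in 2 of 6 genes that rose, 0 of 7 that fell and 2 of 17 that did not pass. The exact CLEAR form, the C/EBP-ATF element and the FoxO element had 0 matches in these windows, against 0.443%, 2.84% and 3.04% of measured genes. The cyclic AMP element had 1 match, in Atg16l2, against 2.5%. Near forms of CLEAR were not counted, such as GTCACGTGTC in Atg3 and GGCACGTGAC in Lamp1. For strings this rare, 0 matches in 30 members says little. A match is a description of letters and not a binding site. Shown are the windows of the 2 raised genes with an E-box, Atg5 and Atg3, and of Lamp1, which holds 4 matches and did not pass the test, with the E-box in capitals, 5′ to 3′.
Atg5 (chr10:44268089-44268338, plus strand): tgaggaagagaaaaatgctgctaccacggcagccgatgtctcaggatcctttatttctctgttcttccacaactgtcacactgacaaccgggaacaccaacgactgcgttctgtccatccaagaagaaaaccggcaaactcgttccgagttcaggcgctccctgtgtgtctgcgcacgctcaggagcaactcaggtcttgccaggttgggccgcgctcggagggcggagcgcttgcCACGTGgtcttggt
Atg3 (chr16:45158579-45158828, plus strand): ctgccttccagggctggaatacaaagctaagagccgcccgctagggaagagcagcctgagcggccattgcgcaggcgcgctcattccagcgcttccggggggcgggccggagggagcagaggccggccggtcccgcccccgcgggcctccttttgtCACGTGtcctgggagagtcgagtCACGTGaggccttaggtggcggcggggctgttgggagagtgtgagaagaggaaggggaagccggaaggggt
Lamp1 (chr8:13158911-13159160, plus strand): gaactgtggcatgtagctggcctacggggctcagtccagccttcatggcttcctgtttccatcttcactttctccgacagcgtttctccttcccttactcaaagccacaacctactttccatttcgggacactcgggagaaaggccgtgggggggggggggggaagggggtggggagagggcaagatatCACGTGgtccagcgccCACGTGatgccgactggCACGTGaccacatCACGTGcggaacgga
The E-box of Atg5 ends 8 bases before the start, those of Atg3 88 and 65 bases before it, and those of Lamp1 between 55 and 9 bases before it.

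ATG8 proteins coat the autophagosome and bind cargo receptors, and 3 of their 5 genes rose while 0 fell in limma (0 also at an unadjusted p under 0.05 in that direction). Map1lc3b, which encodes the LC3B protein used to count autophagosomes, had the largest rise of all 36 members. It read 11.76, 11.81 and 11.80 in KO arrays and 11.15, 11.12 and 11.21 in WT arrays, a difference of 0.63 or 1.55-fold (SE 0.047; limma, adjusted p = 0.000249). All 4 of its probe sets were called higher, by 0.42 to 0.63. Map1lc3a, which encodes LC3A, read 10.40, 10.36 and 10.42 in KO arrays and 10.14, 10.14 and 10.15 in WT arrays, a difference of 0.25 (SE 0.043; limma, adjusted p = 0.00588). Both LC3 genes had separate groups, with a spread of at most 0.09 within a genotype.

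Of the GABARAP branch, which acts later in autophagosome closure and fusion, 1 of 3 genes rose. Gabarap read 10.15, 10.22 and 10.18 in KO arrays and 10.02, 10.04 and 9.99 in WT arrays, a difference of 0.16 (SE 0.047; limma, adjusted p = 0.0396). That call was lost in 10 of 15 alternatives, including the omission of any single array, with adjusted p between 0.000849 and 0.119. Gabarapl1 read 8.83, 8.83 and 8.75 in KO arrays and 8.83, 8.78 and 8.77 in WT arrays. Gabarapl2 read 10.52, 10.58 and 10.55 in KO arrays and 10.54, 10.57 and 10.53 in WT arrays. The genotypes overlapped for both genes, with differences of 0.00 and 95% intervals of -0.11 to 0.12 for Gabarapl1 and -0.11 to 0.11 for Gabarapl2. The smaller response of one branch than of the other was not tested as a difference.

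Cargo receptors and the lysosome membrane each held 1 gene that rose. Sqstm1, which encodes p62 and also serves NRF2 and mTORC1 signalling, read 10.03, 9.91 and 9.93 in KO arrays and 9.71, 9.75 and 9.73 in WT arrays. The difference was 0.23 (SE 0.051; limma, adjusted p = 0.0164), with KO replicate 1 the highest and the groups apart. The call was lost in 2 of 15 alternatives, among them without WT replicate 1, where the difference was 0.22 (limma, adjusted p = 0.0628; lowest over the alternatives 0.000120). Nbr1, the related receptor, read 10.78, 10.84 and 10.89 in KO arrays and 10.80, 10.79 and 10.81 in WT arrays, with overlap and a difference of 0.04 (95% interval -0.08 to 0.15).

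Lamp2, a lysosomal membrane protein needed for fusion and, in its A form, for chaperone-mediated autophagy, read 9.998, 10.05 and 9.99 in KO arrays and 9.65, 9.65 and 9.74 in WT arrays. The difference was 0.34 or 1.26-fold (SE 0.049; limma, adjusted p = 0.00309), with no overlap. Lamp1, the other major glycoprotein of the lysosome membrane, read 12.18, 12.15 and 12.17 in KO arrays and 12.24, 12.26 and 12.18 in WT arrays, a difference of -0.06 (95% interval -0.17 to 0.05). Tfeb, the transcription factor that switches on lysosomal and autophagy genes when it enters the nucleus, read 6.08, 5.92 and 6.02 in KO arrays and 5.997, 6.39 and 6.02 in WT arrays. Its groups overlapped, with a difference of -0.13 (95% interval -0.41 to 0.15; limma, adjusted p = 0.487). Its activity is controlled mainly by phosphorylation and location, which arrays do not show.

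Most members were read by several probe sets, and these differed for a few genes. The 36 genes had 83 probe sets, with 25 genes on more than 1. Of the 47 dimmer ones 11 were called higher and 3 lower in limma over all probe sets, 33 were not called, and 1, of Wipi2, went against a called brightest probe set. Dimmer probe sets of Atg5, Map1lc3a, Map1lc3b and Lamp2 were all called higher, like the brightest. For Lamp2 the size differed between them: 2 rose by 0.34 and 0.35, while the others rose by 0.87 and 0.95. Lamp2 is spliced into forms with different ends, and the files do not pair the probe sets with them. Sqstm1 had a dim probe set that read 5.56, 6.11 and 5.92 in KO arrays and 4.37, 4.51 and 4.77 in WT arrays, a difference of 1.31 or 2.48-fold (SE 0.16; limma over all probe sets, adjusted p = 0.00183), against 0.23 on the brightest. With all probe sets of a gene averaged, differences moved by over 1.5 times for Ulk2 (-0.35), Atg13 (-0.22), Atg12 (0.20), Atg16l1 (0.27), Lamp2 (0.63) and Sqstm1 (0.77), all still past the threshold. Ulk1 then read -0.12 and lost its call (limma, adjusted p = 0.119; lowest over its alternatives 6.72e-06).

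**Figure D3:**
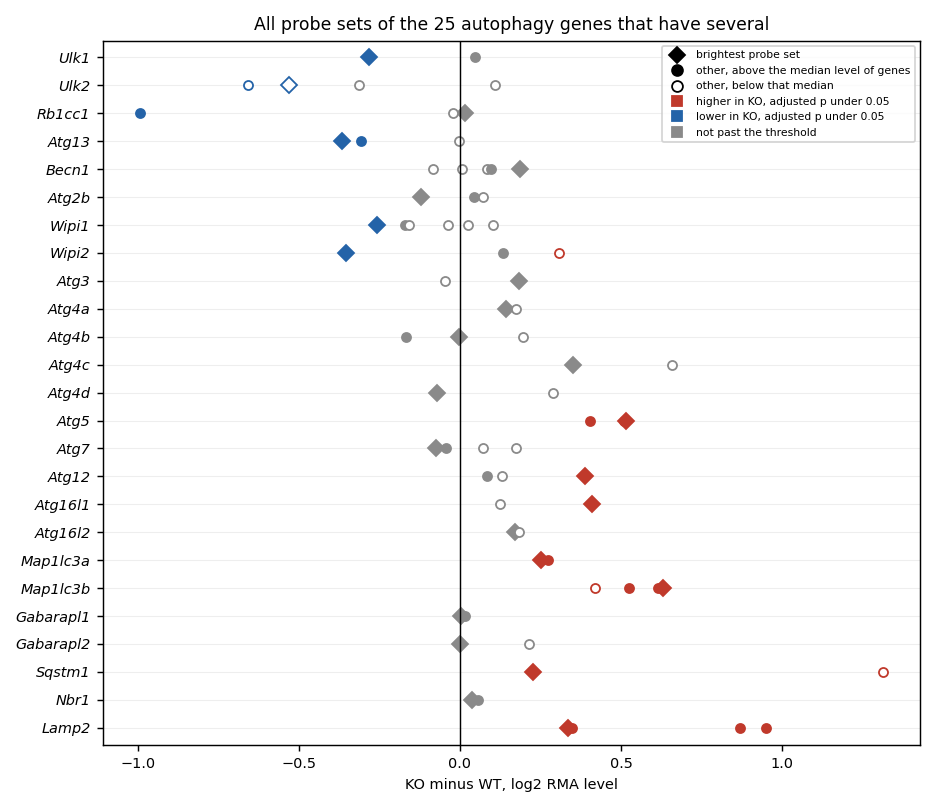
Every probe set of the 25 autophagy genes that have several is placed by its KO minus WT difference in log2 RMA level: diamonds are the brightest probe set of a gene, filled symbols lie above the median level of all genes, and colour gives the call in limma adjusted over all probe sets, a stricter adjustment under which Atg3 is not called. The outlying points are a dim probe set of Sqstm1 (1.31), a pair for Lamp2 (0.87 and 0.95) and one for Rb1cc1 (-0.99), and Wipi2 has called probe sets on both sides of 0.

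Position in the genome was looked at for each member. Map1lc3b, Gabarapl2 and Lamp1 lie on chromosome 8, where 313 of 932 measured genes (33.6%) were higher in KO cells, against 11.3% on the other chromosomes. Among the 10 measured genes nearest to Map1lc3b 3 rose and 1 fell, with a median log2 difference of 0.19, and for Gabarapl2 5 rose and 1 fell, with a median of 0.13. Around Lamp1 4 of the 10 fell, with a median of -0.20. The part of the chromosome in the rise of Map1lc3b was not tested. The other 15 called members lie elsewhere, and the medians of their 10 neighbours were between -0.14 and 0.11. Around Atg4c, on chromosome 4, 6 of the 10 fell and 1 rose, with a median of -0.53, beside the difference of 0.35 for Atg4c. With the genes of chromosome 8 left out, 8 members rose and 7 fell.

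Genes around the core machinery were then counted in lists, which consist largely of genes brighter than the median gene. The share called in either direction was 53.3% for the vacuolar ATPase, 58.3% for lysosomal proteins, 73.3% for other receptors, 32.1% for formation and fusion factors, 44.4% for mTORC1 and AMPK and 61.5% for transcription regulators. Beside these stand the 48.0% of bright genes, the 30.0% of all genes and a median difference of -0.01 over all genes, and nothing is read from a list's share. The subunits of the vacuolar ATPase, the proton pump that acidifies lysosomes, rose for 8 of 15 genes and fell for 0 in limma (1 lower at an unadjusted p under 0.05), with a median of 0.25. Atp6v0b averaged 9.95 ± 0.06 in KO cells and 9.27 ± 0.07 in WT cells (SD, n = 3 each), a difference of 0.68 (SE 0.059; limma, adjusted p = 0.000418). Atp6v1g1 rose by 0.55, and the chromosome 8 genes Atp6v1b2 and Atp6v0d1 by 0.62 and 0.37. Of 36 lysosomal hydrolases and membrane proteins 10 rose and 11 fell, with a median of 0.01. The cysteine protease genes Ctsh and Ctsf fell by 1.62 and 0.86 and the fucosidase gene Fuca1 by 0.69, while Tmem192, a lysosomal membrane protein gene on chromosome 8, rose by 0.88. Ctsh averaged 5.45 ± 0.08 in KO cells and 7.07 ± 0.04 in WT cells (SD, n = 3 each; limma, adjusted p = 3.84e-05).

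Of 15 selective autophagy receptors outside the core list 8 fell and 3 rose, with a median of -0.19. Bnip3, a mitophagy receptor induced by hypoxia, averaged 10.17 ± 0.05 in KO cells and 11.54 ± 0.03 in WT cells (SD, n = 3 each), a difference of -1.37 (SE 0.049; limma, adjusted p = 3.84e-05). Retreg1, a receptor for the endoplasmic reticulum, fell by 0.90. Fundc1, another mitophagy receptor, rose by 0.74, and Tollip, an adaptor for ubiquitinated cargo, by 0.95. The count of lowered receptors was 4 without WT replicate 1, and 5 without KO replicate 1, KO replicate 3 or WT replicate 3. Of 28 further factors of autophagosome formation and fusion 6 rose and 3 fell, with a median of 0.07. Stx17, the SNARE that fuses autophagosomes with lysosomes, fell by 0.78, with KO replicate 1 the lowest at 4.91 and the other KO arrays at 5.29 and 5.60, against 5.97, 6.05 and 6.11 in WT arrays. The PI3P-binding relatives of WIPI proteins went both ways, Wdr45b by 0.38 and Wdr45 by -0.37. Vps11, a subunit of the tethering complex HOPS, rose by 0.37. The number of raised genes in this list was 3 without KO replicate 2, WT replicate 1 or WT replicate 2.

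Upstream regulators were divided as well. Of 36 genes of mTORC1, the nutrient-sensing kinase complex, and AMPK, the energy sensor, 8 rose and 8 fell, with a median of -0.00. Sesn3, a sestrin that lowers mTORC1 activity, fell by 0.60 and the GATOR1 subunit gene Nprl3 by 0.51, while the Ragulator subunit gene Lamtor4 rose by 0.55 and Flcn, which encodes folliculin, by 0.52. With probe sets averaged, 4 genes of this list fell. Of 13 transcription regulators of autophagy genes 4 rose and 4 fell, with a median of -0.15. Nupr1, a stress-induced chromatin protein gene, averaged 10.83 ± 0.06 in KO cells and 8.64 ± 0.08 in WT cells (SD, n = 3 each), a difference of 2.20 (SE 0.061; limma, adjusted p = 2.62e-05). Ddit3, the partner of ATF4 in stressed cells, rose by 1.27 and Mitf, a relative of Tfeb, by 0.40, and Foxo4 fell by 0.40. The remaining FoxO genes in the list, Foxo1 and Foxo3, fell by 0.26 and 0.37. With all probe sets of a gene averaged, 0 genes of this list were called lower in limma (4 at an unadjusted p under 0.05), the FoxO genes included. In mouse fibroblasts short of amino acids ATF4 and the product of Ddit3 are known to raise transcripts of several autophagy genes. The part of Nupr1 and Ddit3 in the rise of the members here was not tested. Atf4 itself differed by -0.07 (limma, adjusted p = 0.335).

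**Figure D4:**
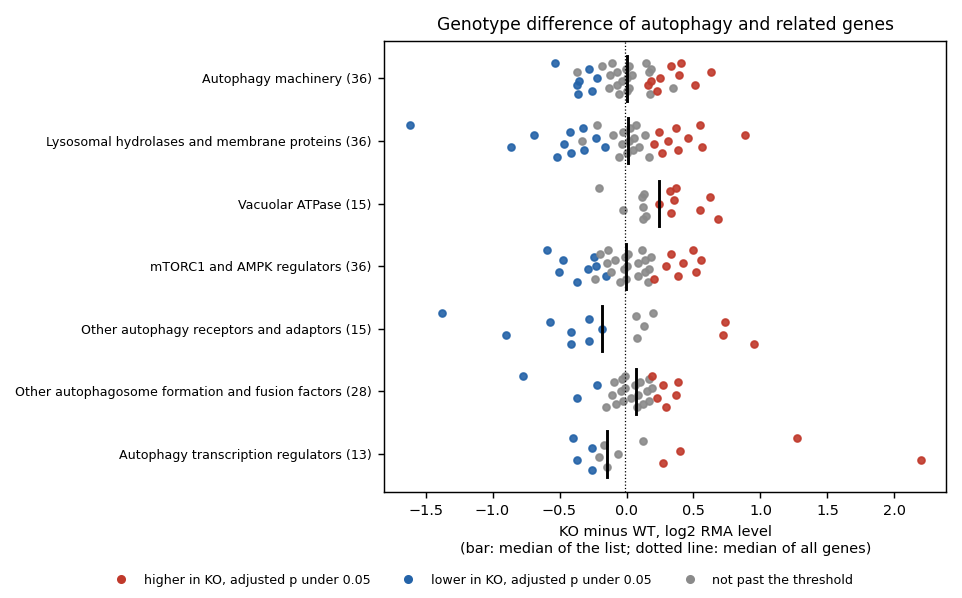
Each point is the KO minus WT difference in log2 RMA level of 1 gene (3 KO and 3 WT arrays), with the 36 autophagy genes in the top row and related lists below, the number of measured genes in brackets and a bar at each list's median. The medians run from -0.19 for other receptors and adaptors to 0.25 for the vacuolar ATPase, and all 36 core genes lie within 0.63 of 0 while single genes of other lists reach -1.62 (Ctsh) and 2.20 (Nupr1).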

How the data were processed

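RNA of 3 KO and 3 WT samples was read on 1 array each, and groups follow the labels' titles. Values were deposited as log2 levels, a scale read from their range, and the submitters' processing notes name RMA and Partek 6.5 for their making. Settings and annotation were not given in the sources used here. Having 3 arrays a group limits the precision. Of 45101 probe sets, 64 controls, 932 with several symbols and 9160 with none were left out, and 34945 covered 18193 genes. No dim gene was removed. Chromosomes came from RefSeq on GRCm38.p6 by Entrez identifier (18031 genes matched). For the array annotation no build was found.

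The KO minus WT difference of each gene was tested in limma 3.58.1 under R 4.3.3 (lmFit, eBayes, two-sided), and p-values were adjusted over all genes by Benjamini-Hochberg with a threshold of 0.05. The code was run on simulated, independent values with known changes, a check that says nothing on the variation among these arrays. Members, lists, motifs and settings were chosen with earlier results of these data known. The rule for names took all members, and of each list up to 4 genes with the largest change past the threshold. Foxo1, Foxo3, Atf4 and the genes in the closing observations were named after their values were seen. Lists in full held 42 lysosomal, 16 vacuolar ATPase, 37 mTORC1 and AMPK, 18 receptor, 28 formation and 15 regulator genes, of which those counted were measured.

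Other settings were quantile normalisation repeated, centring of arrays on medians, a filter on the dimmest 40% of genes, mean of probe sets, probe sets whose identifiers end in no _s_at, _x_at or _a_at, an intensity trend with robust variance, the replicate number as a block, an adjusted p under 0.01 and each array left out. Testing all probe sets together, and leaving out chromosome 8, were added after seeing the data.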

Additional observations from a re-analysis of the deposited data

How the results depend on the processing

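Of the 16 called autophagy genes, 8 passed a threshold of 0.05 under all alternatives run (Ulk2, Atg13, Atg5, Atg12, Atg16l1, Map1lc3a, Map1lc3b and Lamp2), and 15 kept their direction. The stricter threshold of 0.01 is not counted among these alternatives. Of the 8, Ulk2 and Atg13 did not pass it (limma, adjusted p = 0.0131 and 0.0125). With probe sets averaged, Wipi2 read 0.030 and Rb1cc1 -0.33. Of the 20 others, 6 passed under some alternative and 10 changed sign somewhere. At an adjusted p under 0.01, 6 members rose and 2 fell, and of all genes 3356 were called, 1347 higher and 2009 lower, against 5462. Centring moved the median of all genes by 0.02. At 0.01 the counts were also 5 higher and 4 lower for mTORC1 and AMPK, 4 lower for receptors, and 3 higher and 1 lower for formation factors. Averaged probe sets gave 4 lower for mTORC1 and AMPK and 0 lower in limma for transcription regulators (4 at an unadjusted p under 0.05). A vacuolar ATPase gene was lower, 1 each, without dim genes and with a variance trend. With 1 array left out, the lowered receptors numbered 4 to 7 and the raised formation factors 3 to 5, where fewer samples were fitted. For changes named without another alternative, the cause was not tested. The labels do not say that replicate numbers pair samples, and deviations of like-numbered arrays correlated at 0.0515, -0.0865 and 0.198 across genes. With the replicate block 6 members rose and 7 fell, and Atg3, Gabarap and Sqstm1 were not called. Weak signal over background limits Atg10, the dimmest member.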

Other observations

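Subunits of the energy and nutrient sensors did not move together, as seen in genes chosen after their values were known. The catalytic subunits of AMPK differed in direction: Prkaa1 averaged 6.85 ± 0.11 in KO cells and 6.44 ± 0.14 in WT cells, and Prkaa2 averaged 7.91 ± 0.12 in KO cells and 8.27 ± 0.06 in WT cells (SD, n = 3 each). Of the regulatory subunits Prkab1 rose by 0.33 and Prkag2 fell by 0.47, while Prkab2 and Prkag1 differed by 0.18 and 0.01 and did not pass. Mtor fell by 0.29 and its activator Rheb by 0.23. Of the other mTORC1 subunits in the list Mlst8 rose by 0.30. Rptor, Akt1s1 and Deptor differed by -0.14, -0.01 and 0.08 and did not pass. Fnip1 and Rragc, which act with folliculin at the lysosome, rose by 0.38 and 0.50, as Flcn did. Prkaa1, Prkaa2 and each gene said here to rise or fall passed at an adjusted p between 0.000805 (Rragc) and 0.0175 (Prkag2) in limma. Relatives of Fnip1 and Rragc in the list did not rise: Fnip2, Rragd and Rraga differed by -0.11, -0.20 and -0.09 and did not pass.

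Among lysosomal genes, also chosen after their values were known, the cysteine protease genes Ctsl, Ctsc and Lgmn fell by 0.42, 0.16 and 0.52, as Ctsh and Ctsf did. The remaining cysteine protease genes of the list, Ctsb, Ctsz and Ctss, did not fall. Ctsb read 0.17 higher in KO cells without passing (limma, adjusted p = 0.0541). Ctsz and Ctss differed by 0.02 and -0.06, with overlap. The mean level of Ctss, 2.69, lay below the lower quartile of all probe sets (3.19), where a change may not be seen. Ctsa, a serine carboxypeptidase gene, rose by 0.25. The lipase gene Lipa rose by 0.57 and the sialidase gene Neu1 by 0.55, and the galactosidase gene Glb1, whose product is held in a complex with those of Ctsa and Neu1, fell by 0.42. Each gene said here to rise or fall had KO arrays wholly on one side of the WT arrays.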
